A study of Mus musculus with 8 samples.

Results

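Glycolysis and the transcripts that cells raise when oxygen is short were followed as a set of 35 genes in B16 cells, a pigmented mouse melanoma line. The genes were chosen by name, as textbook glycolytic enzymes, their transporters and regulators, and targets of the hypoxia-inducible factor (HIF). All 35 were named on the array, by 62 of its 55698 probes, and all 35 entered the test, among 18073 genes tested. They were sorted into 17 glycolytic enzymes, 3 transporters of glucose or lactate, 3 regulators of flux, the factor gene Hif1a and 11 HIF targets outside glycolysis.

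The study, titled for the effect of SEMA3E and its receptor plexin D1, measured total RNA on 1-colour Agilent arrays, with 2 biological replicates per the labels in each of 4 groups. The groups were cells given cytochalasin D for 8 h, cells given SEMA3E for 2 h, cells given SEMA3E for 8 h, and untreated control cells labelled 0 h. SEMA3E is a secreted guidance protein of the semaphorin family, and cytochalasin D is a fungal compound that blocks the growth of actin filaments. All groups were the same cell line in high-glucose medium with serum, and the labels give no dose and no lowered oxygen. The SEMA3E 2 h group and both 8 h groups were all set against controls that were not matched in time.

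Glycolysis splits glucose into pyruvate and yields ATP without oxygen, and many tumour cells, melanoma cells among them, run it at a high rate and export lactate. HIF is a pair of proteins whose alpha subunit, such as the product of Hif1a, is hydroxylated by the prolyl hydroxylases of the Egln genes and then destroyed when oxygen is present. When oxygen falls the subunit persists, binds DNA at short sites with the core letters ACGTG or GCGTG, and raises many glycolytic genes together with genes for vessel growth, pH control and mitochondrial removal. The control lies mostly in the protein, so the Hif1a transcript is not a measure of HIF activity.

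Values below are log2 of the array's processed signal minus the 75th percentile of the probes that were well above background on all 8 arrays, and a difference of 1 is 2-fold. A level belongs to its probe and is compared between groups for that probe alone. Before scaling, the 75th percentile over all spots of an array stood at a signal of 111 and 66.8 with cytochalasin D, 59.3 and 61.1 at 2 h of SEMA3E, 154 and 141 at 8 h of SEMA3E, and 129 and 132 in control. The part of this uneven signal in the results was not tested. All arrays lay on the same slide, per the file headers, with the arrays of a group side by side, so position and group cannot be told apart. Of 7 melanocyte markers, 7 were above background on all 8 arrays, and their summed log2 signal lay between 6.64 and 6.74 with cytochalasin D, between 6.88 and 7.12 at 2 h of SEMA3E, between 6.52 and 6.63 at 8 h of SEMA3E, and between 6.51 and 6.59 in control. Of the markers of other cells, 2 of 5 immune, 2 of 4 endothelial, 0 of 4 keratinocyte and 2 of 4 fibroblast genes were above background on all 8 arrays, and each summed signal lay below 0 on every array. The labelled cell type thus matched its markers.

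No glycolysis or hypoxia gene passed the test in any of the 5 comparisons. By limma with Benjamini-Hochberg adjustment over all genes tested, 0 of 35 passed an adjusted p of 0.05 at 2 h of SEMA3E against control (0% of all genes passed), at 8 h of SEMA3E against control (0.00553%), for cytochalasin D against the controls (0%), for cytochalasin D against SEMA3E at 8 h (0.00553%) and at 8 h against 2 h of SEMA3E (0%), and the smallest adjusted p of a member was 0.406. At an unadjusted p under 0.05 stood Ldha (higher) and Pfkfb3 (lower) at 2 h of SEMA3E against control, 2 of 35 where all genes gave 9.47%. At 8 h of SEMA3E against control they were Eno2 (higher), Pfkfb3 and Slc16a1 (both lower), 3 of 35 against 6.14%, and with cytochalasin D against control there were 0 of 35 against 2.44%. For cytochalasin D against SEMA3E at 8 h they were Slc2a1 and Pfkfb3 (higher) and Ndrg1 (lower), 3 of 35 against 11%, and at 8 h against 2 h of SEMA3E they were Pfkl and Egln1 (higher), Ldha and Slc16a1 (lower), 4 of 35 against 11.6%. These shares lay near those of all genes, and Slc16a1 had entered the test only through the control arrays. In bulk RNA, fewer cells of a kind and less RNA per cell cannot be told apart.

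**Figure D1:**
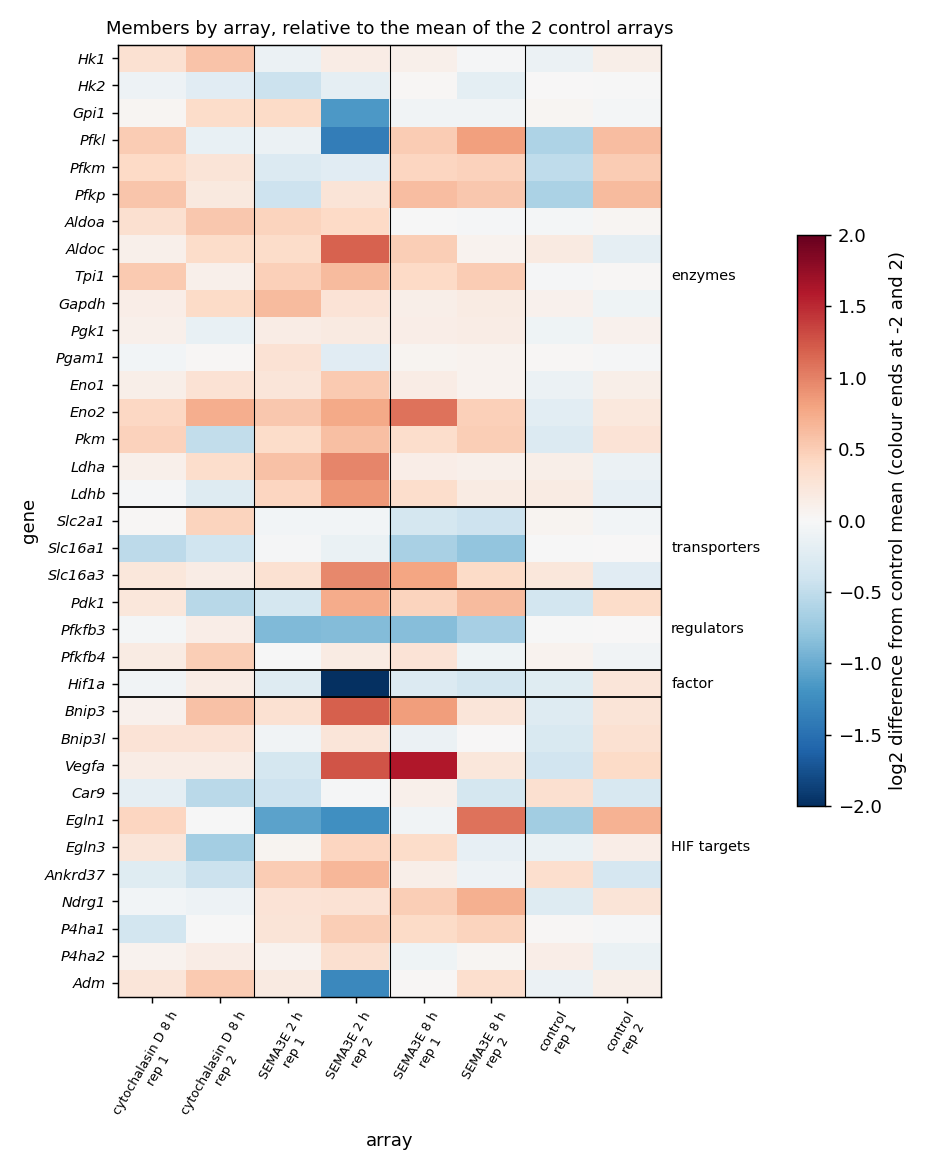
Colour map of the 35 genes (rows, grouped by role) on the 8 arrays (columns, grouped as cytochalasin D 8 h, SEMA3E 2 h, SEMA3E 8 h and control), where colour is the log2 difference from the mean of the 2 control arrays. The arrays of a group differed by under 0.25 for 16 of the 35 rows with cytochalasin D, 14 at SEMA3E 2 h, 24 at SEMA3E 8 h and 16 in control, and SEMA3E 2 h replicate 2 stands out for Hif1a, Pfkl and Gpi1 (low) and for Vegfa and Bnip3 (high).

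Among the enzymes, the transcripts of the later steps read higher at 2 h of SEMA3E than in control and those of the early hexose steps mostly did not, though no enzyme passed. By their brightest probes, all 11 enzymes from aldolase to lactate dehydrogenase lay above 0 at 2 h, with a median difference of 0.48. Of the 6 enzymes that act on hexoses 1 lay above 0, with a median of -0.28. This division was made after the values were seen and is a description. Of all 18073 genes, 9922 lay above 0 at 2 h against control. Among genes with a mean level over 2, where most of the later enzymes lay, 82% lay above 0, with a median of 0.30. Relative to genes of like signal the later enzymes had a median of 0.18, with 9 of 11 above 0, and the early ones -0.31. Both other probes of Ldha lay below 0 (-0.68 and -0.32), as did a further probe of Tpi1 (-0.03) and of Gapdh (-0.02). With probes averaged, 10 of the 11 lay above 0. Hexokinases trap glucose as its phosphate, Gpi1 converts it to fructose phosphate, and the phosphofructokinases Pfkl, Pfkm and Pfkp commit it to glycolysis. At 2 h against control these differed by 0.02 (Hk1), -0.31 (Hk2), -0.39 (Gpi1), -0.75 (Pfkl), -0.25 (Pfkm) and -0.08 (Pfkp), with standard errors from 0.25 to 0.55. The signs of Hk1, Gpi1, Pfkm and Pfkp turned when 1 array was left out, so that 2 of the 6, Hk2 and Pfkl, kept theirs. Gpi1 read 3.56 and 2.03 at 2 h of SEMA3E and 3.22 and 3.15 in control, its difference was 0.38 without SEMA3E 2 h replicate 2, and its 2 other tested probes gave 0.57 and 0.40. The aldolases, which split the sugar, differed by 0.42 (Aldoa) and 0.77 (Aldoc), Tpi1 by 0.56, Gapdh by 0.45, Pgk1 by 0.17, Pgam1 by 0.03, the enolases by 0.38 (Eno1) and 0.64 (Eno2), the pyruvate kinase gene Pkm by 0.48, and the lactate dehydrogenases by 0.78 (Ldha) and 0.65 (Ldhb).

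The later steps kept more members above 0 than not in 21 of 22 other processing settings at 2 h, from 7 to 11 of 11, and had 4 of 11 when arrays were scaled to the all-probe median, which moved the median of all genes to -0.53 and theirs to -0.11. Among the 22, settings that changed only the variance model or arrays of other groups could not move these differences and are no support. Of the 11, Pgam1 alone changed sign when 1 array was left out. The early steps had 0 to 3 of 6 above 0 over the 22, with a median of 0.00 without control replicate 2. After 8 h of SEMA3E, 10 of the 11 later and 4 of the 6 early enzymes lay above 0 against control, with medians of 0.14 and 0.24. Of all 18073 genes, 11452 lay above 0 there, with a median of 0.12. With cytochalasin D, 7 of the 11 later and 5 of the 6 early enzymes lay above 0, with medians of 0.23 and 0.27, as did 9644 of all genes. Leaving out 1 array turned the signs of 4 early and 3 later enzymes at 8 h of SEMA3E. With cytochalasin D it turned those of 3 early enzymes (Pfkl, Pfkm and Pfkp) and 4 later ones. At 8 h against 2 h of SEMA3E all 6 early enzymes lay above 0 and 9 of the 11 later ones lay below it, where 10192 of all genes lay above 0. The direction of the later ones depended on the processing, with 7 of 11 above 0 after quantile normalization, after normexp with quantile normalization and in the deposited table. The early count moved too, to 3 of 6 above 0 after scaling to the all-probe median, when the median of all genes was -0.48. It was 4 of 6 after scaling to the all-probe 75th percentile, and likewise when probes were averaged. Leaving out 1 array turned the signs of Hk1 and Gpi1, and the other tested probes of Gpi1 gave -0.54 and -0.33.

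**Figure D2:**
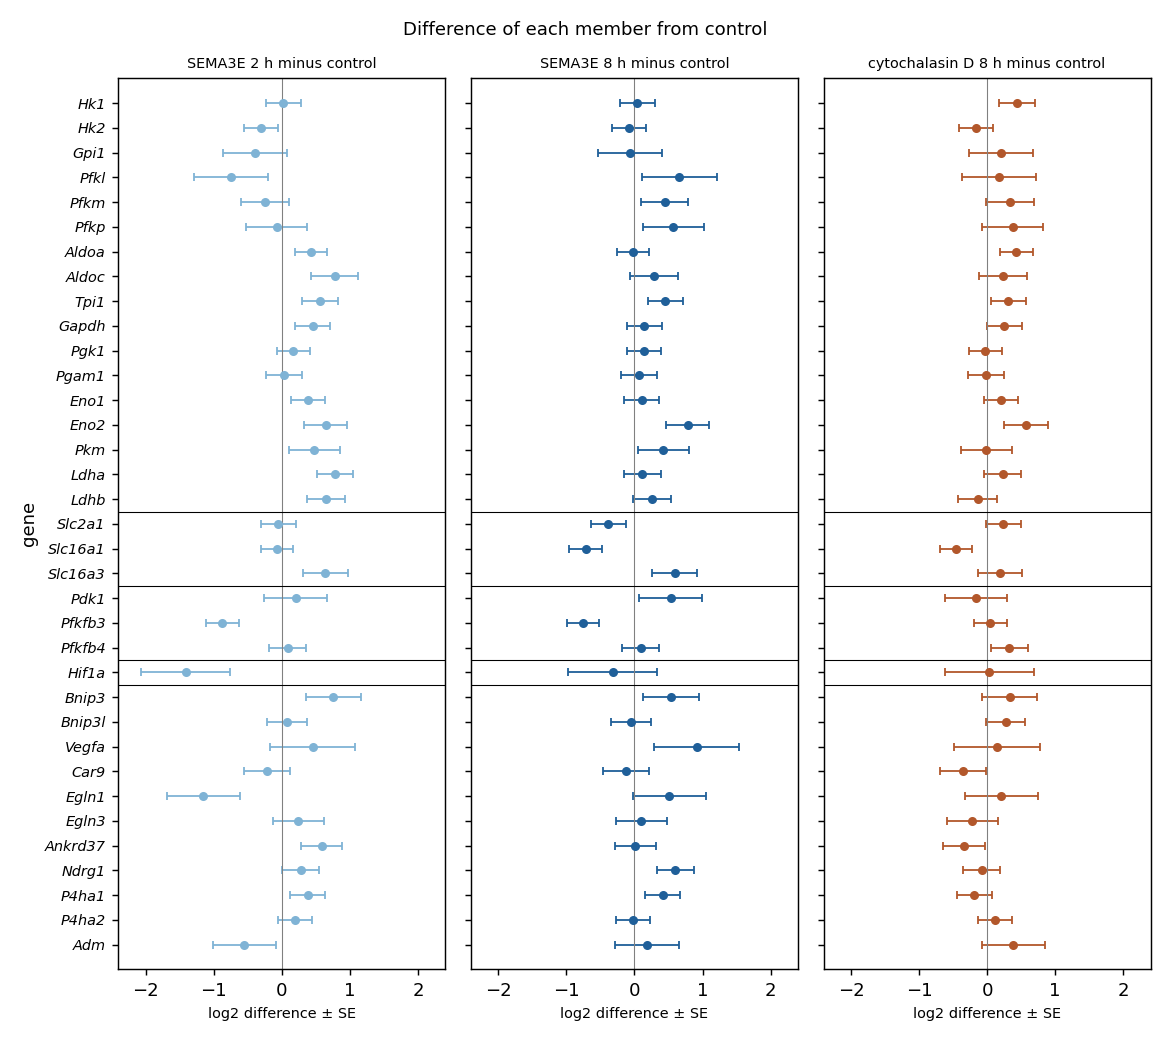
Log2 difference from control (points) with limma's standard error (bars) for each of the 35 genes, in panels for SEMA3E 2 h, SEMA3E 8 h and cytochalasin D 8 h, with lines between the roles. In the left panel the enzymes from Aldoa down to Ldhb all sit right of 0, and in the right panel most bars reach 0.

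Ldha makes lactate from pyruvate and is a classical HIF target. It read 2.99 and 3.24 with cytochalasin D, 3.48 and 3.86 at 2 h of SEMA3E, 3.03 and 2.98 at 8 h of SEMA3E, and 3.01 and 2.77 in control. Both SEMA3E 2 h arrays lay above the arrays of every other group, and the difference from control was 0.78 ± 0.27 (SE), 1.71-fold higher, with a limma adjusted p of 0.518. Its difference at 8 h against 2 h of SEMA3E was -0.66 ± 0.27. Other probes of Ldha did not follow it, as described with the probes.

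Pfkl, the liver-type phosphofructokinase, read -0.88 and -1.54 with cytochalasin D, -1.49 and -2.76 at 2 h of SEMA3E, -0.88 and -0.56 at 8 h of SEMA3E, and -2.0 and -0.77 in control. The 8 h arrays of SEMA3E lay above both 2 h arrays, by 1.41 ± 0.55 (adjusted p = 0.417 by limma), and the control arrays differed from each other by 1.23. Eno2, the enolase best known from neurons, read -1.50 and -1.20 with cytochalasin D, -1.39 and -1.17 at 2 h of SEMA3E, -0.83 and -1.45 at 8 h of SEMA3E, and -2.14 and -1.71 in control. All 6 treated arrays lay above both controls, with differences of 0.57 ± 0.32, 0.64 ± 0.32 and 0.78 ± 0.32 in that order of treatments, and adjusted p of 1.0, 0.531 and 0.802 by limma. The 3 differences share the control arrays and are not separate evidence. Scaled to the all-probe median, which moved the median of all genes at 8 h of SEMA3E to -1.04, Eno2 lay at -0.38, or 0.66 above that median.

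Hk2, the inducible hexokinase of tumours, read 0.70 and 0.58 with cytochalasin D, 0.36 and 0.62 at 2 h of SEMA3E, 0.82 and 0.61 at 8 h of SEMA3E, and 0.81 and 0.78 in control. Pgk1, which makes the first ATP of the pathway, read 4.27 and 4.02 with cytochalasin D, 4.32 and 4.35 at 2 h of SEMA3E, 4.31 and 4.31 at 8 h of SEMA3E, and 4.08 and 4.26 in control. The largest difference from control among the 2 genes was -0.31, for Hk2 at 2 h of SEMA3E. Hk1, the housekeeping hexokinase, read 1.72 and 1.98 with cytochalasin D, 1.30 and 1.56 at 2 h of SEMA3E, 1.52 and 1.39 at 8 h of SEMA3E, and 1.30 and 1.53 in control, so that the cytochalasin D arrays lay above all others, by 0.44 ± 0.26 over control. The 3 probes of Hk1 gave differences from -0.90 to 0.34 at 2 h and from 0.04 to 0.93 at 8 h of SEMA3E, and from -0.12 to 0.96 with cytochalasin D, so that they did not share a sign there.

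The transporters went different ways. Slc2a1, the glucose transporter GLUT1, read 0.43 and 0.85 with cytochalasin D, 0.36 and 0.35 at 2 h of SEMA3E, 0.05 and -0.01 at 8 h of SEMA3E, and 0.46 and 0.36 in control. The SEMA3E 8 h arrays were the lowest of the 8, with a difference of -0.39 ± 0.26 from control, and cytochalasin D lay 0.62 ± 0.26 above SEMA3E at 8 h (adjusted p = 0.450 by limma). Both differences kept their sign in all 22 other settings, though those that changed only the variance model or arrays of other groups could not turn it. Slc16a3, the lactate exporter MCT4 that HIF is known to raise, read -1.16 and -1.24 with cytochalasin D, -1.08 and -0.43 at 2 h of SEMA3E, -0.59 and -1.01 at 8 h of SEMA3E, and -1.17 and -1.62 in control. All SEMA3E arrays lay above both controls, by 0.64 ± 0.33 at 2 h and 0.59 ± 0.33 at 8 h. A further probe of the gene gave 0.63 and 0.56, but it shared most of its bases with the first and is not separate evidence.

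Slc16a1, the lactate transporter MCT1, was dim. It read -7.53 and -7.41 with cytochalasin D, -7.03 and -7.14 at 2 h of SEMA3E, -7.66 and -7.81 at 8 h of SEMA3E, and -7.03 and -7.00 in control. It was well above background on 1 of the 2 cytochalasin D arrays, 0 of the 2 SEMA3E 2 h arrays, 1 of the 2 SEMA3E 8 h arrays and both controls. The probe thus entered the test through the controls alone, where its mean was highest, and that filter favours lower values in the treated groups. SEMA3E at 8 h differed from control by -0.72 ± 0.24 (adjusted p = 0.730 by limma), and this rests on signals near background. At 2 h it differed from control by only -0.07 (measured means -7.09 with SEMA3E and -7.01 in control, adjusted p = 0.927 by limma). For 8 h against 2 h no fold is given. After normexp the 2 h difference was 0.88 (adjusted p = 0.0486 by limma), when the median of all genes was 0.39, so the direction at 2 h turned with that setting.

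Of the regulators, Pfkfb3 had the smallest unadjusted p among the members at both SEMA3E times against control. It encodes the enzyme that makes fructose-2,6-bisphosphate, the main activator of phosphofructokinase, and is a known HIF target. Its brighter probe read -1.16 and -0.99 with cytochalasin D, -2.01 and -1.99 at 2 h of SEMA3E, -1.98 and -1.78 at 8 h of SEMA3E, and -1.14 and -1.11 in control. The 4 SEMA3E arrays lay below the 4 others, by 0.62 at the closest. The difference from control was -0.88 ± 0.24 at 2 h (1.84-fold lower, adjusted p = 0.464 by limma) and -0.76 ± 0.24 at 8 h (1.69-fold lower, adjusted p = 0.710), and cytochalasin D lay 0.81 ± 0.24 above SEMA3E at 8 h (adjusted p = 0.413). No array that was left out turned these signs. The dimmer probe of Pfkfb3 did not follow, with differences of -0.17 at 2 h and 0.83 at 8 h of SEMA3E from control, and the mean of both probes gave -0.52 and 0.04. The deposited table, whose rule for several probes is not stated, gave 0.58 and -1.73. Pfkfb4, a related enzyme, differed from control by 0.33, 0.08 and 0.09 for cytochalasin D, SEMA3E 2 h and SEMA3E 8 h. Pdk1, the kinase that keeps pyruvate out of mitochondria, differed by -0.16, 0.20 and 0.53 in that order, each with a standard error of 0.46.

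Hif1a rested on 1 array. It read -0.27 and -0.05 with cytochalasin D, -0.45 and -2.76 at 2 h of SEMA3E, -0.47 and -0.56 at 8 h of SEMA3E, and -0.44 and 0.05 in control. SEMA3E 2 h replicate 2 alone was low. The difference at 2 h was -1.41 ± 0.66 with both arrays (adjusted p = 0.518 by limma), -0.26 without SEMA3E 2 h replicate 2 and -2.56 without replicate 1 (adjusted p = 0.0265). At 8 h against 2 h the values were 1.09 with both, -0.06 without replicate 2 and 2.24 without replicate 1 (adjusted p = 0.0312). Replicate 2 of SEMA3E 2 h also held 214 outlier spots, where the other arrays held 6 to 24, and Hif1a had 1 tested probe.

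HIF targets outside glycolysis gave no common direction. Against control, 8 of 11 lay above 0 at 2 h of SEMA3E, 8 of 11 at 8 h of SEMA3E and 6 of 11 with cytochalasin D, with medians of 0.24, 0.18 and 0.12. Of all 18073 genes, 9922, 11452 and 9644 lay above 0 in that order. Bnip3, which marks mitochondria for removal and is among the firmest HIF targets, read 0.34 and 0.85 with cytochalasin D, 0.57 and 1.46 at 2 h of SEMA3E, 1.1 and 0.51 at 8 h of SEMA3E, and 0.01 and 0.52 in control. By this probe the arrays of 2 h lay above both controls, by 0.75 ± 0.41, and at 8 h the groups overlapped. A further tested probe gave 0.24 at 2 h, where its arrays (-2.07 and -0.95) overlapped with control (-1.73 and -1.76), and 0.51 at 8 h. Bnip3 stayed above control in all 22 other settings at 2 h and in 21 of 22 at 8 h, though those that changed only the variance model or arrays of other groups could not turn it.

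Vegfa, the vessel growth factor, read -4.02 and -4.02 with cytochalasin D, -4.52 and -2.91 at 2 h of SEMA3E, -2.57 and -3.93 at 8 h of SEMA3E, and -4.55 and -3.78 in control. Its difference of 0.91 ± 0.63 at 8 h of SEMA3E was 1.59 without replicate 2 of that group and 0.23 without replicate 1, and a further probe gave 0.72. Car9, the surface carbonic anhydrase much used as a hypoxia marker, read -3.87 and -4.23 with cytochalasin D, -4.11 and -3.72 at 2 h of SEMA3E, -3.59 and -4.04 at 8 h of SEMA3E, and -3.37 and -4.02 in control. Car9 thus overlapped with control in every treatment, with differences from -0.36 to -0.13.

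The prolyl hydroxylases Egln1 and Egln3 limit HIF and are themselves raised by it. Egln1 read -5.50 and -5.92 with cytochalasin D, -7.00 and -7.16 at 2 h of SEMA3E, -5.99 and -4.83 at 8 h of SEMA3E, and -6.62 and -5.23 in control. It was well above background on all arrays but the 2 of SEMA3E 2 h. At 2 h its mean as measured was 2.23-fold lower than in control (-7.08 with SEMA3E and -5.92 in control, adjusted p = 0.518 by limma). At 8 h of SEMA3E its mean was 3.18-fold higher than at 2 h (-5.41 and -7.08, adjusted p = 0.406 by limma). Both folds take the probe's own signal on the dim arrays, which lay above the lowest signal marked as above background there. They are bounds with respect to background only, and not with respect to the spread between arrays. After normexp background correction the 2 h difference was 0.57. Egln3 read -6.38 and -7.29 with cytochalasin D, -6.56 and -6.19 at 2 h of SEMA3E, -6.25 and -6.78 at 8 h of SEMA3E, and -6.74 and -6.49 in control, with no difference from control over 0.24.

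Ndrg1, a stress-induced gene of growth arrest, read -1.58 and -1.62 with cytochalasin D, -1.25 and -1.23 at 2 h of SEMA3E, -1.03 and -0.81 at 8 h of SEMA3E, and -1.77 and -1.27 in control. The SEMA3E 8 h arrays were the highest of the 8, by 0.60 ± 0.27 over control, and cytochalasin D differed from SEMA3E at 8 h by -0.68 ± 0.27 (adjusted p = 0.449 by limma). Collagen prolyl hydroxylase genes gave 0.38 at 2 h and 0.41 at 8 h of SEMA3E for P4ha1, whose further probe gave 0.32 and 0.43, and 0.19 and -0.03 for P4ha2. Ankrd37, an ankyrin repeat gene that HIF is known to raise, differed from control by 0.59 ± 0.30 at 2 h and 0.01 at 8 h of SEMA3E. Adm, the vasodilator adrenomedullin, differed by -0.55 ± 0.47 at 2 h, where it was above background on 1 of 2 arrays and the value was 0.18 without replicate 2, and by 0.18 at 8 h. Bnip3l, a relative of Bnip3, read 0.33 and 0.33 with cytochalasin D, -0.02 and 0.29 at 2 h of SEMA3E, -0.05 and 0.07 at 8 h of SEMA3E, and -0.25 and 0.36 in control, so that all treatments overlapped with control. Its 4 probes gave differences from -0.98 to 0.08 at 2 h of SEMA3E and from -0.88 to 0.27 with cytochalasin D.

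Enzymes and HIF targets outside glycolysis did not separate beyond the spread between replicates in any treatment against control. The median difference of the 17 enzymes was 0.38 at 2 h of SEMA3E, 0.14 at 8 h of SEMA3E and 0.23 with cytochalasin D, and the median over all genes was 0.06, 0.12 and 0.03. The enzymes' median minus that of the HIF targets was 0.14, -0.04 and 0.11 in that order, 0.22 for cytochalasin D against SEMA3E at 8 h, and -0.06 for 8 h against 2 h of SEMA3E. Arrays of a group differed in this quantity by an SD of 0.16. By array it was 0.05 and 0.27 with cytochalasin D, 0.30 and -0.04 at 2 h of SEMA3E, 0.02 and -0.09 at 8 h of SEMA3E, and 0.09 and -0.09 in control. Both treated arrays lay above both controls in no group. Both cytochalasin D arrays lay above both SEMA3E 8 h arrays, and that difference of 0.22 exceeded the SD, but it was -0.077 after quantile normalization and -0.056 after normexp. At 2 h the sign turned with quantile normalization (-0.22), normexp (-0.18), both (-0.18), the deposited table (-0.046) and SEMA3E 2 h replicate 1 left out (-0.043).

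**Figure D3:**
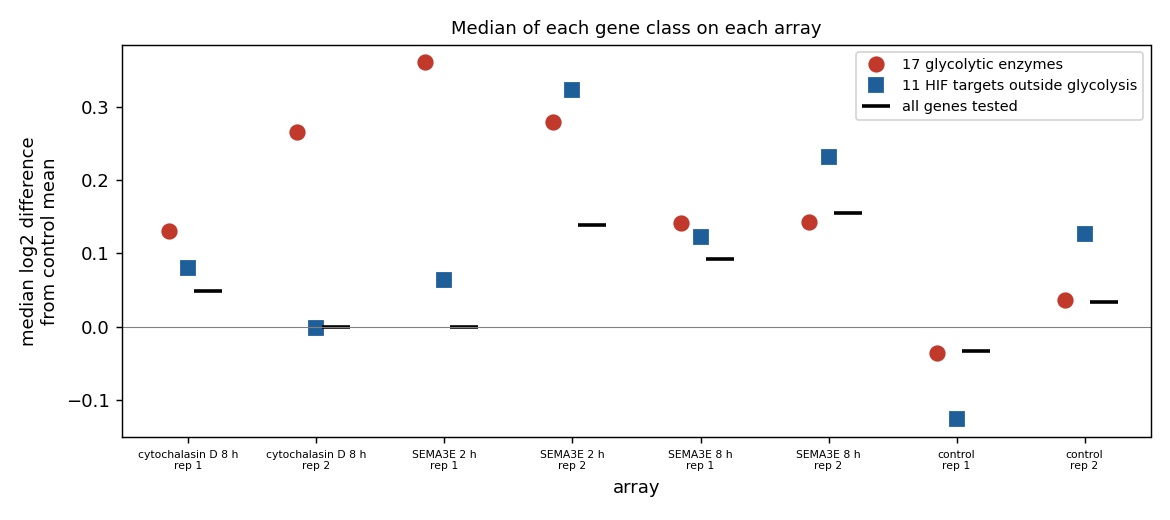
Median log2 difference from the control mean of the 17 enzymes (circles), the 11 HIF targets outside glycolysis (squares) and all genes tested (dashes) on each array, in the order cytochalasin D 8 h, SEMA3E 2 h, SEMA3E 8 h and control. Enzymes lie above HIF targets by 0.30 on SEMA3E 2 h replicate 1 and below them by 0.04 on replicate 2, and the HIF targets of the control arrays lie at -0.13 and 0.13.

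Counts of genes whose groups did not overlap put a larger share of members than of all genes higher at 2 h, with the level of signal not matched. Both SEMA3E 2 h arrays lay above both controls for 15 of 35 members, where all genes gave 24.5%, and below them for 5, where all genes gave 15.2%. The enzymes held 10 of the 15. At 8 h of SEMA3E the counts were 11 above (25.1% of all genes) and 5 below (12.3%), and with cytochalasin D 9 above (15.9%) and 2 below (13%). For cytochalasin D against SEMA3E at 8 h, 9 lay above (19.6%) and 11 below (32.8%), and for 8 h against 2 h of SEMA3E 6 lay above (27.9%) and 10 below (22.6%).

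Signal strength moved with these differences. The probes of 9 of the 17 enzymes had a mean level over 2, as did 1430 of all genes, and the probes of the other 8 were dimmer. In that bright range the median over all genes was 0.30 at 2 h of SEMA3E against control and 82% of them lay above 0, while the 9 enzymes had a median of 0.42 with 8 above 0. At 8 h against 2 h of SEMA3E bright genes had a median of -0.29 and the 9 enzymes -0.11. Relative to the median of all genes in the same range of signal, the enzymes had a median of 0.08 at 2 h, 0.13 at 8 h of SEMA3E and 0.14 with cytochalasin D, and the HIF targets 0.21, -0.04 and 0.10. The ranges were set after the data were seen. On that measure the 11 later enzymes had a median of 0.18 at 2 h with 9 above 0, and the 6 early ones -0.31 with 1 above 0. For 8 h against 2 h of SEMA3E, the later ones had 0.01 on it with 6 above 0, and the early ones 0.54 with 6 above 0.

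**Figure D4:**
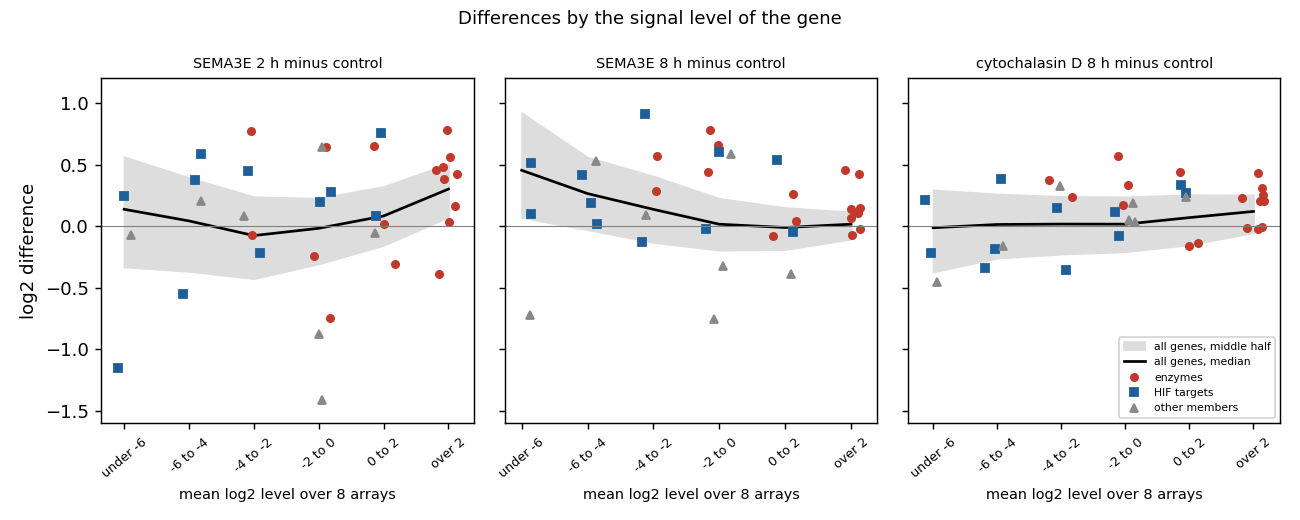
Log2 difference from control against the mean log2 level in 6 ranges of signal, for SEMA3E 2 h, SEMA3E 8 h and cytochalasin D 8 h, with the median (line) and interquartile range (grey) of all genes and the members as points (spread sideways at random within a range). At SEMA3E 2 h the line climbs to 0.30 in the brightest range, where 9 enzymes lie.

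Probes of the same gene often went apart. Of the members, 13 had several tested probes, and the signs of their differences conflicted for 7 of 13 at 2 h of SEMA3E against control, 3 at 8 h of SEMA3E, 8 with cytochalasin D, 6 for cytochalasin D against SEMA3E at 8 h and 9 for 8 h against 2 h of SEMA3E. Conflicts with a spread over 1 between probes numbered 4, 2, 3, 3 and 5 in that order. Probes of Slc16a3, P4ha1, Vegfa and Pgk1 stayed within 0.34 of each other in each comparison. Small conflicts of sign for Vegfa and Pgk1 are among those counted. The probes of Slc16a3 shared most of their bases, as did those of Pgk1, so their closeness is not separate evidence. The probes were written as 60 bases in the files, and 15 of the 58 tested for members (25.9%) held AATAAA, the usual signal for a transcript's end, as did 10.1% of all probes. The latter include probes that were dim or not tested, so these shares are not of like sets. The letters of probes that departed from the brightest probe of their gene are given here, 5′ to 3′, for Ldha on chromosome 7, Gapdh on chromosome 6, Pfkfb3 on chromosome 2 and Pfkp on chromosome 13. Pfkp probe 2, which departed furthest, held AATAAA, the other 5 did not, and the brighter Pfkp probe did not either. Each of the 6 read through without a stop codon in at least 1 of the 3 sense frames, as did 79.3% of all probes.
Ldha probe 2: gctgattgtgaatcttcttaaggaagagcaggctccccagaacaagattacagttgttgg
Ldha probe 3: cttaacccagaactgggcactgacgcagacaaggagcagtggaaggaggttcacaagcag
Gapdh probe 1: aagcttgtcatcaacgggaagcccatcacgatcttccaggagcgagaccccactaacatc
Gapdh probe 3: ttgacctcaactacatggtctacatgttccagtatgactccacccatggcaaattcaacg
Pfkfb3 probe 1: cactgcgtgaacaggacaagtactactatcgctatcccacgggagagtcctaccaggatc
Pfkp probe 2: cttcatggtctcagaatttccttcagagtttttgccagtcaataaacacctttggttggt

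Ldha probe 2 read -2.96 and -4.07 with cytochalasin D, -3.30 and -3.75 at 2 h of SEMA3E, -1.70 and -1.91 at 8 h of SEMA3E, and -3.13 and -2.56 in control. Ldha probe 3 read 1.82 and 1.56 with cytochalasin D, 1.37 and 1.19 at 2 h of SEMA3E, 1.86 and 2.22 at 8 h of SEMA3E, and 1.26 and 1.95 in control. By group means both were highest at 8 h of SEMA3E and lower at 2 h than in control, while the bright probe, which held AATAAA, was highest at 2 h. The mean of the 3 probes lay at -0.08 at 2 h against control, and the deposited table at -0.15.

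Gapdh, the enzyme often taken as a loading control, had 7 probes, and processed copies of this gene elsewhere in the genome make its values uncertain. The brightest read 4.43 and 4.68 with cytochalasin D, 4.93 and 4.58 at 2 h of SEMA3E, 4.42 and 4.47 at 8 h of SEMA3E, and 4.38 and 4.22 in control. Gapdh probe 3 read 1.15 and -0.32 with cytochalasin D, 0.02 and 0.74 at 2 h of SEMA3E, 1.59 and 1.85 at 8 h of SEMA3E, and -0.22 and 1.02 in control. Over the 7, the difference from control ran from -0.02 to 0.68 at 2 h and from 0.04 to 1.32 at 8 h of SEMA3E. Pfkfb3 probe 1 read -7.46 and -8.68 with cytochalasin D, -8.15 and -7.66 at 2 h of SEMA3E, -7.57 and -6.24 at 8 h of SEMA3E, and -8.29 and -7.19 in control, with more spread within groups than the bright probe.

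Pfkp, the platelet-type phosphofructokinase, had the widest gap. Its brighter probe read -2.15 and -2.49 with cytochalasin D, -3.10 and -2.44 at 2 h of SEMA3E, -2.08 and -2.16 at 8 h of SEMA3E, and -3.32 and -2.07 in control. Pfkp probe 2 read -8.70 and -7.24 with cytochalasin D, -4.05 and -4.87 at 2 h of SEMA3E, -8.27 and -8.67 at 8 h of SEMA3E, and -4.81 and -9.26 in control. The control arrays alone differed by 4.45 on the dim probe, so no direction is given for it.

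**Figure D5:**
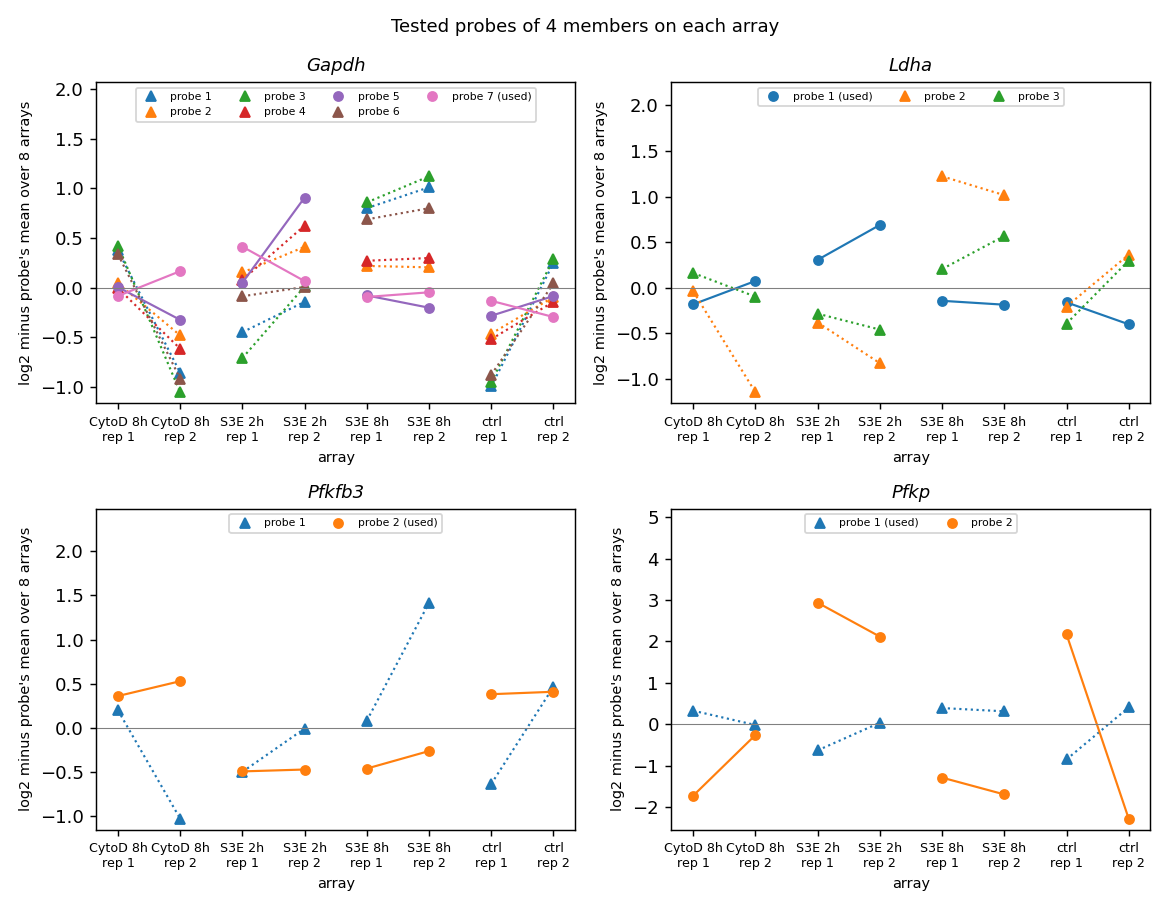
Log2 value of each tested probe minus its own mean over the 8 arrays, for Gapdh, Ldha, Pfkfb3 and Pfkp, with arrays in the order cytochalasin D 8 h (CytoD), SEMA3E 2 h and 8 h (S3E) and control (ctrl) and the replicates of a group joined. Circles and solid lines mark probes that hold AATAAA, triangles and dotted lines those that do not. For Ldha the circle is highest at SEMA3E 2 h and the triangles at SEMA3E 8 h.

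Promoter letters were not read in choosing the genes, but genes become known as HIF targets partly through such sites, so the shares below are a description and not independent of the choice. RefSeq's promoter windows (mouse build GRCm38.p6, 250 bases before to 50 after each start) covered 33 of the 35 genes, all but Ndrg1 and Bnip3l, with 47 windows, and 26 windows (55.3%) held ACGTG on either strand, against 19.6% of all 32851 windows. The HIF targets held it in 8 of 10 windows (80%) and the enzymes in 12 of 28 (42.9%). ACGTG or GCGTG stood in 80.9% of members' windows and in 43.8% of all. Median GC content was 62% in members' windows and 52.7% in all, and its part in these shares was not tested. Letters alone do not show binding. One window each of the enzyme, the HIF target outside glycolysis and the regulator described most above are shown, with ACGTG and GCGTG in capitals on either strand, so that they also appear as CACGT and CACGC. Their positions are chr7:46845554-46845853 (plus strand) for Ldha, chr7:138909457-138909756 (minus strand) for Bnip3 and chr2:11502041-11502340 (minus strand) for Pfkfb3.
Ldha: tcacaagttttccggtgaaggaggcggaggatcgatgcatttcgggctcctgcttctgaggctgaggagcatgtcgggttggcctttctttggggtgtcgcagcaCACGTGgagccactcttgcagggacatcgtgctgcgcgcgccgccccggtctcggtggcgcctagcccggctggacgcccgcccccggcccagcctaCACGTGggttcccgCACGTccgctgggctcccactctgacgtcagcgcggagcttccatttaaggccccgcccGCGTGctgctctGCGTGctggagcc
Bnip3: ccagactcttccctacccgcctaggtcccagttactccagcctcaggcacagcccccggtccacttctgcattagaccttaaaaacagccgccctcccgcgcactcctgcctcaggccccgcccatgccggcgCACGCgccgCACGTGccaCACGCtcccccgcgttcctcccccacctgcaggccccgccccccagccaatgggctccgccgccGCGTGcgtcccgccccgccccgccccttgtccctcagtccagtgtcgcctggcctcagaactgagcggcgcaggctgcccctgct
Pfkfb3: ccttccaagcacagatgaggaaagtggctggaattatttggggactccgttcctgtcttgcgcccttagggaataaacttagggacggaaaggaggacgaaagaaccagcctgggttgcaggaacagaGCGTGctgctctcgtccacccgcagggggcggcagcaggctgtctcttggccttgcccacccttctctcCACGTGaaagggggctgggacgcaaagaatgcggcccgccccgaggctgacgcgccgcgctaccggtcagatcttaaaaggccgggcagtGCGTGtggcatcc

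In these windows ACGTG occurred 5 times for Ldha, 2 times for Bnip3 and 2 times for Pfkfb3, a palindromic CACGTG counting once on each strand. RefSeq listed a further window for Ldha, with 0, and one for Pfkfb3, with 1, and the window with more was shown. By their brightest probes Ldha and Bnip3 read above control at 2 h of SEMA3E, and Pfkfb3 read below it.

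Other genes of the same pathways gave no call. Of 21 further genes of glucose metabolism tested, 10 lay above 0 at 2 h of SEMA3E against control, 12 at 8 h of SEMA3E and 9 with cytochalasin D, with medians of -0.05, 0.08 and -0.07. Of 32 further genes of the HIF pathway, 17, 18 and 15 lay above 0, with medians of 0.06, 0.09 and -0.05. Ddit4, a stress-induced inhibitor of mTOR that HIF is known to raise, had a mean of -3.37 with cytochalasin D, -0.65 at 2 h of SEMA3E, -1.05 at 8 h of SEMA3E and -3.14 in control. Its difference from control was 2.49 ± 0.75 at 2 h (adjusted p = 0.489 by limma) and 2.09 ± 0.75 at 8 h of SEMA3E (adjusted p = 0.761), and cytochalasin D differed from SEMA3E at 8 h by -2.32 ± 0.75 (adjusted p = 0.429). Pgf, a relative of Vegfa, differed by 1.83 ± 0.44 at 8 h of SEMA3E, where it was above background on 2 arrays, and on 1 in control. The macrophage factor gene Mif differed by 0.93 ± 0.39 at 2 h, and the pentose phosphate gene Rpe by -1.78 ± 0.72 at 2 h and -2.02 ± 0.72 with cytochalasin D. The facilitative glucose transporter gene Slc2a3 lay 0.87 ± 0.34 higher at 8 h than at 2 h of SEMA3E.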

How the data were processed

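The authors deposited 8 scanner files and 1 table of values by gene name. Per the file headers, the arrays were read with Agilent Feature Extraction 11.5.1.1 (annotation on build mm9) and gProcessedSignal is an intensity with background subtracted and trends within the array removed, unscaled between arrays. The deposited table holds intensity on the same scale and served as an alternative. Control spots and outlier-flagged spots were left out, repeat spots averaged, and log2 values were computed here from the deposited intensity minus each array's 75th percentile over 18687 probes well above background on all 8 arrays. The test took probes measured on every array and marked well above background on both arrays of at least 1 group (24667 probes), and a gene took its brightest probe. Group means were fitted over all 8 arrays with limma 3.58.1 (R 4.3.3, empirical Bayes, 4 residual degrees of freedom), two-sided, with Benjamini-Hochberg adjustment over 18073 genes. Figures used Python 3.11.15 and matplotlib 3.10.9.

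The genes, their classes, the further lists and the tests were chosen with earlier results of these data known. Values on each array are given for members with an unadjusted p under 0.05 in any comparison, members whose probes conflicted by over 1 log2 unit, and the pathway's best-known genes (Slc2a1, Hk2, Pgk1, Ldha, Hif1a, Vegfa, Bnip3, Car9 and Egln3). Of the further lists, at most 4 genes a list and comparison could be named, by lowest p. With 2 arrays a group, the number of arrays limits precision. The median standard error at 2 h of SEMA3E was 0.34, and the fit was tested on simulated data. Of all spots on an array, 37.8% to 48.2% were well above background and 0 were saturated. The 22 alternatives changed scaling, background correction, filters, probe choice, GC trend, variance model or the arrays used. Those that changed only the variance model, added a replicate block or left out arrays of groups not compared could not change a difference or its sign.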

Additional observations from a re-analysis of the deposited data

How the results depend on the processing

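Over 22 alternatives the count of members that passed stayed at 0 in all 5 comparisons, except for SEMA3E 2 h against control, with 2 after normexp (Egln3 and Slc16a1, both higher, when 3396 of 3437 calls over all genes were higher and the median of all genes was 0.39) and 1 without SEMA3E 2 h replicate 1 (Hif1a, among 416 calls), a range of 0 to 1 with 1 array left out, and for 8 h against 2 h of SEMA3E, with 1 without that replicate (Hif1a, among 461), also 0 to 1. The enzymes' median minus the HIF targets' median moved by more than the replicate SD as follows. With quantile normalization it was -0.22 at 2 h and 0.14 at 8 h of SEMA3E against control, -0.077 for cytochalasin D against SEMA3E at 8 h and 0.33 for 8 h against 2 h. After normexp it was -0.18 at 2 h, -0.056 for cytochalasin D against SEMA3E at 8 h and 0.33 for 8 h against 2 h, and with both steps -0.18, 0.15 (8 h against control), -0.053 and 0.24. It was -0.046 at 2 h from the deposited table and -0.23 at 8 h against control with the GC trend removed. With 1 array left out it ran from -0.043 to 0.30 at 2 h, from -0.16 to 0.02 at 8 h against control, from 0.05 to 0.27 with cytochalasin D against control, from 0.07 to 0.37 for cytochalasin D against SEMA3E at 8 h and from -0.18 to 0.17 for 8 h against 2 h. The cause was not tested.

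Of 35 members, the sign turned in at least 1 alternative for 28 at 2 h and 32 at 8 h of SEMA3E, 24 with cytochalasin D, 25 for cytochalasin D against SEMA3E at 8 h and 28 for 8 h against 2 h, and by leaving out 1 array for 11, 14, 18, 10 and 16. Without the scaling to the all-probe median, which shifts every gene of an array alike, the sign turned for 20, 21, 24, 17 and 27. Scaling to the median of all probes moved the median of all genes to -0.53 at 2 h and -1.04 at 8 h of SEMA3E. Over all genes, normexp called 3437 at 2 h, against 0 as reported. Replicate numbers did not pair the arrays (correlations of same-numbered deviations from -0.15 to 0.14), and with the number as a block 0 members passed in each comparison.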
